A study of Rattus norvegicus with 22 samples.

Results

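Endothelial identity genes and the leukocyte adhesion genes of vessel walls were compared between oral squamous cell carcinoma (OSCC) of the rat tongue and adjacent phenotypically normal tissue. The set holds 10 genes of the 19167 gene symbols on the array, and each was found by its symbol on the array and read by its brightest probe over the 22 arrays. The 6 identity genes were Pecam1, Cdh5, Vwf, Tek, Tie1 and Cldn5, and the 4 inducible adhesion genes were Sele, Selp, Vcam1 and Icam1. The tissue came from 11 male F344 rats about 33 weeks of age, and 1 pair of pieces, an OSCC and its normal neighbor, was taken from each tongue. The rats had drunk water with 20 ppm of 4-nitroquinoline 1-oxide (4-NQO), a carcinogen that induces tongue cancer, for 10 weeks, and tissue was harvested 23 to 26 weeks after the first exposure. By the labels the normal pieces had no treatment, and the titles of all arrays say untreated, whereas the deposited protocol takes the normal pieces from the same rats given 4-NQO, so both tissues are treated here as carcinogen-exposed. Each lesion was cut lengthwise, with one portion used for RNA and the other for histology, and every piece held all of its cell types. In such bulk RNA, fewer endothelial cells and less RNA per endothelial cell cannot be told apart.

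Endothelial cells line blood vessels and are recognized by a stable set of junction, receptor and clotting proteins. When cytokines such as interleukin-1 or tumor necrosis factor reach the vessel wall, NF-kB drives transcription of E-selectin, VCAM-1 and ICAM-1, while P-selectin is also stored ready-made in Weibel-Palade bodies beside von Willebrand factor. Selectins let leukocytes roll along the wall, and ICAM-1 and VCAM-1 then hold them through their integrins before they cross into the tissue. Several of these genes are not limited to endothelium, since platelets also carry P-selectin and von Willebrand factor, and epithelial cells, fibroblasts and leukocytes can make ICAM-1.

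RNA was hybridized to Agilent one-color rat arrays, on which 30367 probes were tested. Levels are given as log2 of the processed signal relative to the array's 75th percentile, so that 0 is the signal of that percentile, and levels of different probes are not compared with each other. The percentile itself ranged from 236.8 to 654.9 signal units on normal arrays and from 338.7 to 1414 on OSCC arrays. No slide held both tissues, with 3 slides of normal and 4 of OSCC samples. Of the OSCC arrays only those of animals 4 and 9 shared the scan day of the normal arrays. Paired differences were tested by limma, the p-values were adjusted over the whole array by the Benjamini-Hochberg method, and calls required an adjusted p below 0.05 and at least a 2-fold change. By this rule 13.8% of all probes were called, 6.86% as higher in OSCC and 6.97% as lower. The adjusted p alone was passed by 16.2% of probes as higher and by 27.9% as lower. The median log2 difference over all probes was -0.24, and it moved between -0.44 with scaling to the array median and -0.03 with quantile normalization.

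The probes of Selp carry the only call among the 10 genes, and their sequences are shown because they read differently. Of the 14 probes that carry a member symbol, 2 belong to Selp and both lie at the same place in the rat genome assembly rn4, on the plus strand, at chr13:79922082-79922141 for the probe designed on an Ensembl transcript and at chr13:79922078-79922137 for the probe designed on the RefSeq record. Aligned with each other, the 60-base probes share 56 positions, of which 48 match and 8 differ, and the capitals mark the bases that differ.
Selp probe from the Ensembl transcript: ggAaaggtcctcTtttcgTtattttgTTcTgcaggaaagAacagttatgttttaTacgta
Selp probe from the RefSeq record: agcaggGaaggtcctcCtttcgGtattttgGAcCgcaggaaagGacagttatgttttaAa
The Ensembl-based probe cleared background well on 10 normal and 11 OSCC arrays and is the one described below. Above background, the RefSeq-based probe was seen on 0 normal arrays and on the OSCC array of animal 24 alone, and its log2 difference of -0.27 (SE 0.40, limma adjusted p = 0.591) is a reading at background. The measured rise of Selp therefore rests on 1 probe.

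RefSeq promoter sequences of assembly GRCr8 were at hand for 5 of the 10 genes, namely Tie1, Cldn5, Sele, Vcam1 and Icam1. The promoters of 3 adhesion genes are shown because these genes are textbook NF-kB targets, each as the 200 bases before its annotated start, with matches on either strand to an NF-kB-like pattern, GGG and CC around 5 bases of any kind, in capitals.
Vcam1 promoter, chr2:206742784-206742983, minus strand: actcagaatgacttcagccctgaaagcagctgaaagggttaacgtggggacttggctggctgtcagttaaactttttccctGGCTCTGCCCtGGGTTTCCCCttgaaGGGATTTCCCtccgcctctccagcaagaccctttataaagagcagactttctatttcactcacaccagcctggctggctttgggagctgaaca
Icam1 promoter, chr8:27829645-27829844, plus strand: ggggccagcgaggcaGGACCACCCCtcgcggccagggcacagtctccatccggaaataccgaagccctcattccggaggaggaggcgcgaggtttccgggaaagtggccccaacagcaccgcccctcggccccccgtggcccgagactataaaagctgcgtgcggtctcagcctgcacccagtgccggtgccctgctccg
Sele promoter, chr13:78936314-78936513, plus strand: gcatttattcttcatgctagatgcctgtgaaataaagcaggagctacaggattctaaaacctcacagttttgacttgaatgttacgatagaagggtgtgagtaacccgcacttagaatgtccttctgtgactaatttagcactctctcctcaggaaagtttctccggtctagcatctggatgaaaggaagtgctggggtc
Vcam1 held 3 such stretches, at positions -119, -108 and -93 from the start, and the latter pair matched on both strands. Icam1 held 1 at position -185, and these letters were not found in the window of Sele. Over the whole 300-base window the pattern was found in 3 of the 5 genes, Tie1 being the other, and in 47.3% of all 33469 promoters. A narrower pattern, GGG and TTCC around 3 bases of any kind, found in 5.37% of all promoters, matched in 0 of the 5. A TATA box written as TATAAA, on either strand, was found for Vcam1 and Icam1 and in 14.2% of all promoters. The ETS hexamers CAGGAA and CCGGAA, each present in 29.1% and 15.0% of all promoters, were found in at least 1 form for Icam1, Sele and Vcam1, with no overlap between these hexamers and the capitals printed above. These matches describe letters in a window and say nothing of binding.

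Among the identity genes, Pecam1, Vwf and Cldn5 were lower in OSCC at the adjusted p but by less than 2-fold, and Cdh5, Tek and Tie1 did not pass the test. Thus 0 of the 6 were called by limma, against 13.8% of all probes. At an unadjusted p below 0.05, limma and the methods' paired t-test each passed the same count of 3 before the fold was considered, and with the 2-fold rule the t-test called 0. The count of 3 lower of 6 at the adjusted p stands beside 27.9% of all probes. The median log2 difference of the 6 genes was -0.45, and that of all probes was -0.24. Over the probes well above background on at least 11 arrays, a filter that all 6 genes pass, the median was -0.04.

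Pecam1 encodes PECAM-1 (CD31), a junction protein shared by endothelial cells, platelets and some leukocytes. Its log2 level in normal tissue had a lowest value of 1.79, a median of 2.15 and a highest of 2.58, and in OSCC it ran from 0.81 through 1.66 to 2.30. The OSCC array was the lower of the pair in 10 of 11 animals, and 6 OSCC arrays lay below the lowest normal array. Pecam1 fell by 0.48 on the log2 scale in OSCC (SE 0.12, limma adjusted p = 0.0102), a 1.40-fold difference. Cldn5 encodes claudin-5, the tight junction protein of endothelium. Its normal levels were closely grouped, from 0.57 through 0.83 to 1.11, while its OSCC levels ran from -1.16 through 0.11 to 1.51. Of the OSCC arrays, 9 lay below the whole normal range and 1, that of animal 24, lay above it. Cldn5 fell by 0.64 (SE 0.20, limma adjusted p = 0.0234), and without animal 11 the difference was -0.60 with an adjusted p of 0.0513.

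Vwf encodes von Willebrand factor, which captures platelets at an injured wall. Levels ran from 1.48 through 1.72 to 2.42 in normal tissue and from -0.47 through 1.33 to 2.17 in OSCC. The lowest OSCC value was that of animal 17, and 8 OSCC arrays fell short of every normal array. Vwf fell by 0.64 (SE 0.18, limma adjusted p = 0.0186) and was lower in 9 of 11 pairs. A second Vwf probe that was well above background on every array gave -0.19 (SE 0.11, limma adjusted p = 0.145), also lower in most pairs. The remaining Vwf probe cleared background on 0 normal arrays and on a single OSCC array. In the 9 pairs scanned on different days alone, the adjusted p was 0.0588 for Vwf and 0.0681 for Cldn5, and with scan day as a term or with normexp background correction none of the 3 genes passed. With scan day as a term the tissue difference is estimated from the same-day pairs of animals 4 and 9 alone. It was -0.58 for Pecam1, -0.59 for Vwf and -0.55 for Cldn5, with larger SE (0.30, 0.45 and 0.48).

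Tek and Tie1 encode the angiopoietin receptor TIE2 and its partner receptor TIE1. Tek ran from -3.36 through -2.45 to -2.28 in normal tissue and from -4.03 through -3.03 to -2.20 in OSCC, where 9 of the 11 arrays were well above background. Only 1 OSCC array lay above the normal range and 1 below it, so the groups overlapped widely. The log2 difference of Tek was -0.41 (SE 0.21, limma adjusted p = 0.116), with lower values in 9 of 11 pairs. In animal 24 Tek was higher in OSCC by 1.16, and without that pair the difference was -0.57 with an adjusted p of 0.0165. Tie1 was tightly held in normal tissue, from -1.41 through -1.09 to -0.89, and spread out in OSCC, from -2.48 through -0.73 to -0.26. Here 7 OSCC arrays lay above every normal array and 2 lay below every normal array. The mean log2 difference of Tie1 was 0.10 (SE 0.20, limma adjusted p = 0.683), and it took the opposite sign, -0.10, with scaling to the array median.

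Cdh5 encodes VE-cadherin, the adherens junction protein on which endothelial contacts rest. Its levels overlapped almost fully, from -2.55 through -1.71 to -1.03 in normal tissue and from -2.52 through -1.45 to -0.89 in OSCC. OSCC was higher in 5 pairs and lower in 6, with a mean log2 difference of 0.08 (SE 0.24, limma adjusted p = 0.781). The largest rises were in animals 24 and 22, at 1.65 and 1.18, and the largest drop was in animal 17, at -1.17. The sign of the mean turned with quantile normalization (-0.016), with array median scaling (-0.12) and without animal 22 or animal 24.

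Of the 4 inducible adhesion genes, Selp was called higher in OSCC, and Sele, Vcam1 and Icam1 had positive mean differences that did not pass the test. The 1 call of 4 stands beside 6.86% of all probes called higher, and the median log2 difference of the 4 genes was 0.63. Selp encodes P-selectin, the storage-granule selectin on which leukocytes first roll. Its log2 level ran from -3.17 through -2.24 to -1.82 in normal tissue and from -2.80 through 0.38 to 1.42 in OSCC. In OSCC, 8 arrays exceeded the highest normal array and 0 fell under the lowest. Selp rose by 2.01 on the log2 scale (SE 0.50, limma adjusted p = 0.00864), a 4.02-fold difference, and was higher in 8 of 11 pairs. With scan day as a term, which leaves the estimate to the pairs of animals 4 and 9, the difference was 2.79 with an adjusted p of 0.121. Without animals 21, 22 and 24 limma called 3 of the 4 genes, Selp, Icam1 and Sele. These animals were set aside because earlier results of these data showed their pairs apart from the rest, and they are also the 3 with the smallest excess of adhesion over identity genes, so the values without them are given as a description and support nothing.

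**Figure D1:**
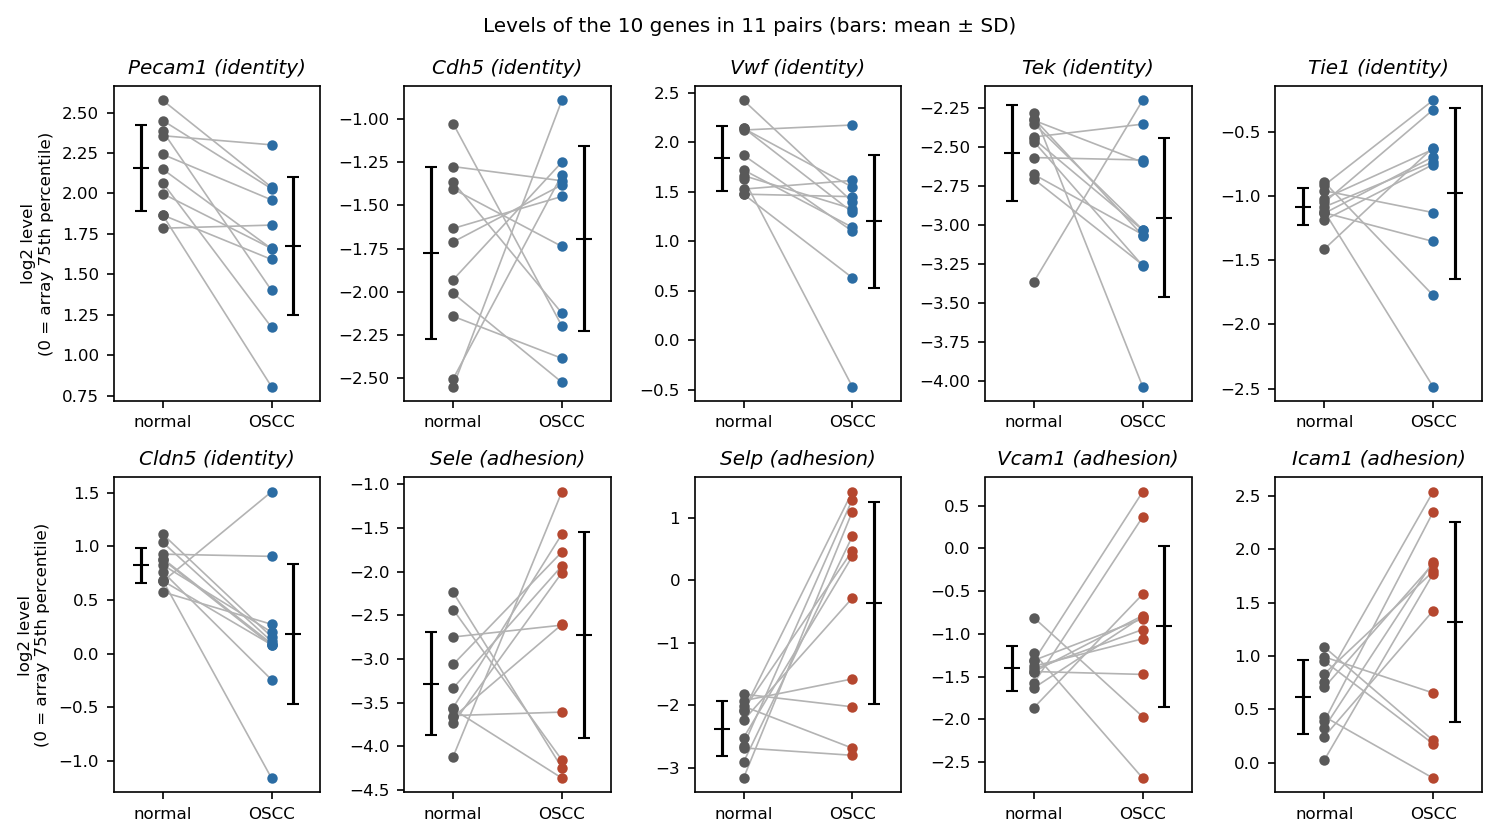
Log2 level of each of the 10 genes (0 is the array's 75th percentile) in normal tissue and OSCC, with each line joining the pieces of 1 animal and bars giving the mean ± SD of 11 arrays. The OSCC points of Selp fall into 7 high and 4 low values, whereas those of Cdh5 cover the same range as normal tissue.

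Icam1 encodes the ligand of the beta-2 integrins by which leukocytes hold to the wall. Its levels ran from 0.03 through 0.71 to 1.08 in normal tissue and from -0.14 through 1.77 to 2.54 in OSCC. As for Selp, most OSCC arrays, 7 of 11, stood above every normal array, and 1 stood below. The log2 difference was 0.71 (SE 0.31, limma adjusted p = 0.0775), and it passed the adjusted p when animal 17, 22 or 24 was left out, at 0.0458, 0.0355 and 0.0353. Vcam1 encodes the ligand of the integrin alpha-4 beta-1 of lymphocytes and monocytes. It ran from -1.86 through -1.41 to -0.81 in normal tissue and from -2.69 through -0.82 to 0.66 in OSCC. The OSCC values reached past the normal range on both sides, with 5 arrays above it and 2 below. The log2 difference of Vcam1 was 0.49 (SE 0.30, limma adjusted p = 0.198), higher in 8 of 11 pairs.

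Sele encodes E-selectin, which is made by activated endothelium. It was the dimmest reading of the group relative to background, with 8 of 11 arrays well above background in each tissue. Levels ran from -4.12 through -3.56 to -2.24 in normal tissue and from -4.36 through -2.60 to -1.09 in OSCC. There were 5 OSCC arrays above the normal range, all well above background. The lowest OSCC arrays, those of animals 17, 21 and 22, and the lowest normal array, that of animal 25, read at background and have no order among them. The log2 difference of Sele was 0.56 (SE 0.43, limma adjusted p = 0.293), and the 11 pair values spanned -2.01 to 3.03, where both ends include a background reading. Its other probe, which cleared background on 2 normal and 7 OSCC arrays, gave 0.93 (SE 0.41, limma adjusted p = 0.076), and was higher in 8 of 11 pairs.

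Variation between OSCC arrays was wider than between normal arrays for all 10 genes, and the ratio of the standard deviations differed among them. It was 4.59 for Tie1, 3.95 for Cldn5, 3.67 for Selp and 3.57 for Vcam1, against a median of 1.64 over all probes. Cdh5 had the lowest ratio of the set, at 1.07. These ratios are descriptions with no test.

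Pair by pair, the adhesion genes moved together in most animals. In 7 animals (4, 9, 11, 13, 16, 25 and 26) all 4 adhesion genes were higher in OSCC. In those pairs the log2 change of Selp lay between 1.96 and 4.26 and that of Icam1 between 0.96 and 1.95. In animals 17, 21, 22 and 24 the change of Selp lay between -0.67 and 0.35 and that of Icam1 between -0.87 and -0.34, so that no pair fell between the ranges for either gene. All 6 identity genes were lower in 4 animals, which were 4, 9, 17 and 21, and these include animals with high and with low adhesion genes. The mean change of the 4 adhesion genes exceeded that of the 6 identity genes in 9 of 11 pairs, the exceptions being animals 22 and 24. In 6 pairs every adhesion gene had a larger change than every identity gene.

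**Figure D2:**
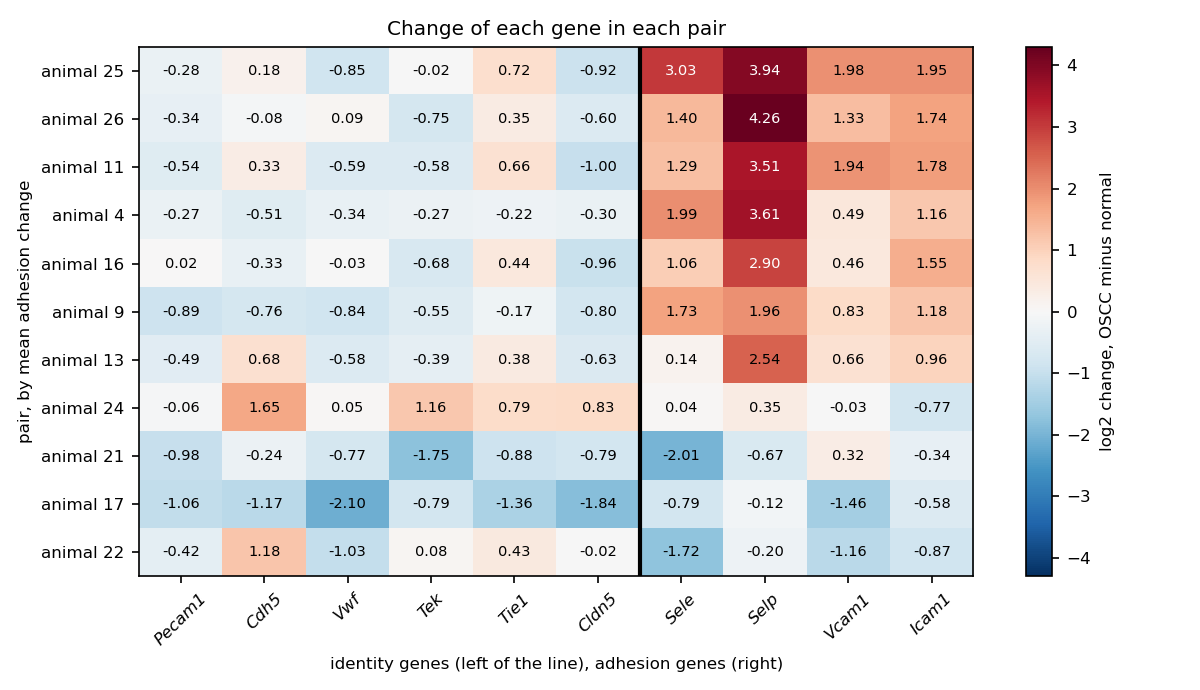
Log2 change (OSCC minus normal) of each gene in each pair, with pairs ordered by the mean change of the 4 adhesion genes and identity genes left of the line. The adhesion genes were all higher in the upper 7 pairs, and the identity genes were mostly lower across pairs, apart from animals 22 and 24.

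Markers of some other cells, but not of most, had separate ranges in the pairs with high and with low Selp. This split was taken from the Selp and Icam1 values themselves, and how many of all probes separate by it was not computed. The mean log2 change of the 9 neutrophil markers on the array lay between 2.49 and 4.14 in the 7 pairs with high Selp and between 0.04 and 1.39 in animals 17, 21, 22 and 24. The mean change of the 12 skeletal muscle markers lay between -3.92 and -1.25 in the former and between -0.81 and 1.75 in the latter. Fibroblast markers did not overlap either, reaching 3.26 in the former and no more than 0.74 in the latter, whereas macrophage markers overlapped, from 1.30 to 2.54 and from -0.28 to 1.44. The ranges also overlapped for pan-leukocyte, T cell, B and plasma cell, platelet, lymphatic endothelial and squamous epithelial markers. Separate ranges were not particular to cell markers. The cytokine and NF-kB genes described below lay between 0.82 and 2.05 with high Selp and between -0.05 and 0.54 with low Selp. The ligands and receptors of leukocyte adhesion lay between 0.87 and 2.21 and between 0.07 and 0.83. The Weibel-Palade and angiopoietin lists overlapped. For the 10 mural cell markers the ranges were -0.86 to -0.47 and -0.90 to 0.43, and for the other endothelial genes they were -0.45 to 0.52 and -0.80 to 0.56. The part of these cells and genes in the change of the adhesion genes was not tested.

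Whether an adhesion gene changed more than an identity gene in the same animal was tested for the 24 possible combinations by an exact sign-flip permutation test over the 11 pairs, two-sided, with Benjamini-Hochberg adjustment over the 24. The mean difference was above 0 in all 24, and 13 passed an adjusted p of 0.05. Selp exceeded all 6 identity genes. Its excess over Vwf was 2.64 log2 units (SE 0.49, 11 of 11 pairs, exact permutation adjusted p = 0.0117), and over Pecam1 it was 2.49 (SE 0.51, 11 of 11 pairs, exact permutation adjusted p = 0.0117). These rest on a p of 0.00098, the smallest this test can give. Over Cdh5 the excess of Selp was 1.92 (SE 0.64) and was present in 8 pairs (exact permutation adjusted p = 0.0405).

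Icam1 and Vcam1 each exceeded Pecam1, Vwf and Cldn5, and no difference of theirs from Cdh5, Tek or Tie1 passed. The excess of Icam1 over Vwf was 1.34 (SE 0.31, 10 of 11 pairs, exact permutation adjusted p = 0.0234), and that of Vcam1 over Vwf was 1.12 (SE 0.29, 9 of 11 pairs, exact permutation adjusted p = 0.0234). Against Tie1, Icam1 differed by 0.60 (SE 0.32, exact permutation adjusted p = 0.11) and Vcam1 by 0.38 (SE 0.28, exact permutation adjusted p = 0.245). Sele exceeded Vwf alone, by 1.19 (SE 0.45, exact permutation adjusted p = 0.0433). The number that passed moved with the pairs used: it was 7 without animal 4, 9, 11, 13, 25 or 26, 20 without animal 22, and 2 in the 9 pairs scanned on different days. With the dim Selp probe in place of the bright one it was 0 of 24, and with the Vwf probe that read at background it was 5.

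**Figure D3:**
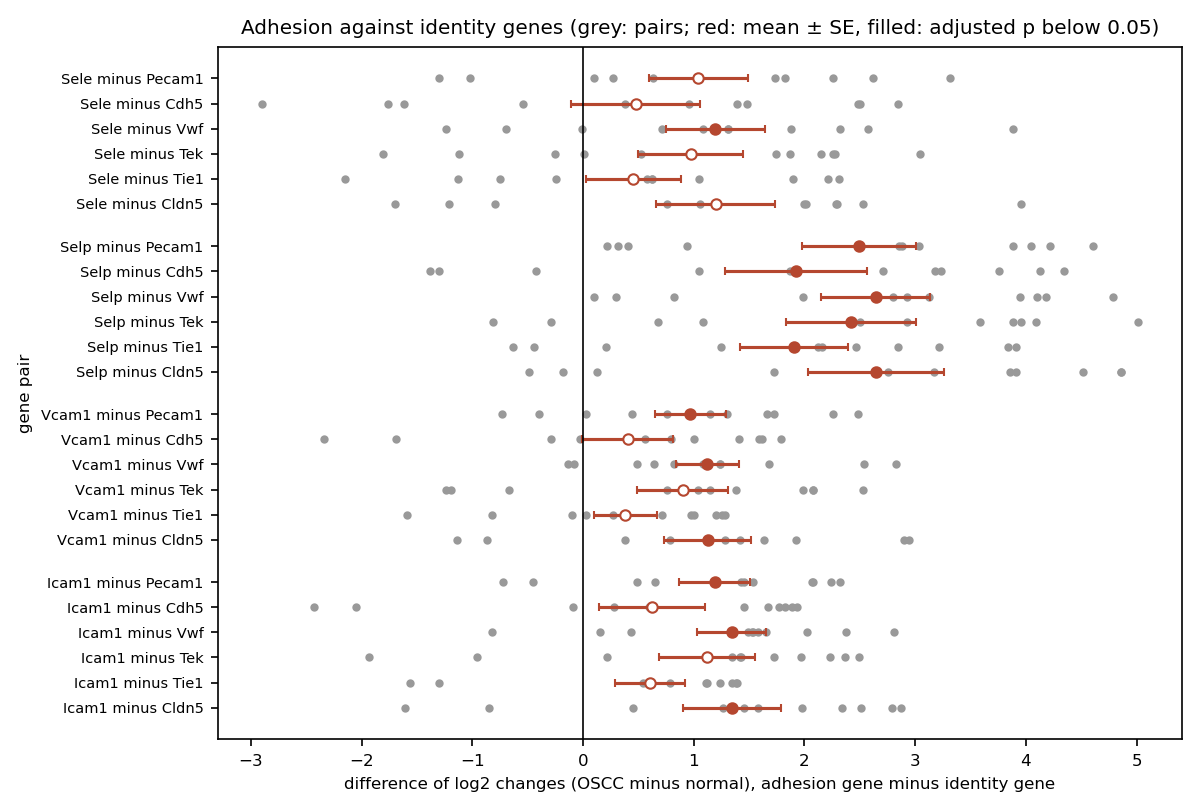
Difference between the log2 change of an adhesion gene and that of an identity gene, with grey points for the 11 pairs, circles and bars for the mean ± SE, and filled circles for an adjusted p below 0.05. All 24 means lie right of 0, since every adhesion gene had a higher mean change than every identity gene, and the 6 Selp rows lie farthest right.

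Relations between members over the pairs were computed for all 45 combinations, with p from 100000 permutations and adjusted over the 45. Where the changes of a gene fell into separate ranges no pooled correlation is given, which applied to Selp and Icam1 as described and to Pecam1, whose 3 lowest pairs stood apart, and left 21 combinations. Sele and Vcam1 had Pearson r = 0.74 (permutation p = 0.0095, adjusted 0.048) and Spearman rho = 0.79 (permutation p = 0.0054, adjusted 0.048), and r was 0.79 without the 2 pairs farthest from the median of Sele. Both follow the split seen for Selp and Icam1. In animals 17, 21, 22 and 24 Sele changed by at most 0.04 and Vcam1 by at most 0.32. In all other pairs Sele changed by at least 0.14 and Vcam1 by at least 0.46. The Sele changes of animals 9, 17, 21, 22, 25 and 26 include a reading not well above background, so their size and rank are uncertain. Among the identity genes Cdh5 and Cldn5 had r = 0.80 (permutation p = 0.0027, adjusted 0.02) and rho = 0.55 (permutation p = 0.087, adjusted 0.28). That relation rests on 2 pairs, since r was 0.46 without them. The other 9 relations among identity genes had r between 0.27 and 0.72 and did not pass. Of the 10 relations between an identity gene and Sele or Vcam1, 0 passed, adjusted or not, with r from -0.21 to 0.53. Some of these r depended on few pairs. Without the 2 pairs farthest from the median of the identity gene, r moved from 0.01 to 0.71 for Cdh5 and Vcam1. For Cldn5 and Vcam1 it moved from -0.05 to -0.76. The 11 pairs therefore do not show that the groups are unrelated. All values share the scaling of their array.

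Within the 7 pairs with high Selp and Icam1, the Pearson r of these genes was 0.69 (exact permutation p = 0.0905, adjusted 0.591) and rho was 0.57 (exact permutation p = 0.2, adjusted 0.945). For Icam1 and Vcam1 within the same pairs r was 0.80 (exact permutation p = 0.0472, adjusted 0.591) and rho was 0.75 (exact permutation p = 0.0663, adjusted 0.945). Of the 27 relations computed within such ranges 0 passed after adjustment and 1 had an unadjusted p below 0.05.

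Genes whose log2 change over the 11 pairs was most like that of Cdh5 were Egflam (r = 0.97), Cdgap (0.95), Lvrn (0.93) and Cndp1 (0.93), among 13592 probes compared. Those most like Sele were Serpina3n (0.95), Wtap (0.93), Rfx1 (0.93) and Zdhhc14 (0.93). Serpina3n, a serine protease inhibitor of the acute phase, was itself called higher, with a log2 difference of 2.28 (SE 0.37, limma adjusted p = 0.00084). These are the highest values of a long ranking and are given as a description.

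Further endothelial genes moved in both directions. Of 29 others, 3 were called higher and 0 lower by limma, beside 6.86% and 6.97% of all probes, with a median log2 difference of 0.00. At the adjusted p alone 5 were higher and 6 lower, beside 16.2% and 27.9% of all probes, and these counts are read as no result about the list. Procr, the endothelial protein C receptor, rose by 1.48 (SE 0.32, limma adjusted p = 0.00377). Cd34, a sialomucin of capillaries and progenitor cells, rose by 1.44 (SE 0.31, limma adjusted p = 0.00399) and cleared background on 1 normal and 8 OSCC arrays. Dll4, the Notch ligand of sprouting tip cells, rose by 1.12 (SE 0.24, limma adjusted p = 0.00343), with 4 normal and 10 OSCC arrays above background. The transcription factor gene Sox18 had a log2 difference of 0.00 and the junction gene Esam one of 0.01. Without animals 21, 22 and 24, a subset in which calls over all probes rose too, the count called higher was 5. With scan day as a term it was 0.

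Of the Weibel-Palade body and venular genes, 10 were on the array, among them the members Sele, Selp, Vcam1 and Vwf, and 2 were called higher, beside 6.86% of all probes. Besides Selp this was Edn1, endothelin-1, a vasoconstrictor peptide, with a log2 difference of 1.17 (SE 0.29, limma adjusted p = 0.00829). At the adjusted p alone 3 of the 10 were higher and 3 lower, beside 16.2% and 27.9% of all probes. Besides Selp and Edn1 the higher gene was Cd63, in 10 of 11 pairs (log2 difference 0.57, SE 0.15, limma adjusted p = 0.0102). Ece1, the endothelin-converting enzyme, was lower by less than 2-fold in 11 of 11 pairs (log2 difference -0.75, SE 0.11, limma adjusted p = 0.000582). Tspan7 (-0.58, limma adjusted p = 0.0293) and the member Vwf were also lower by less than 2-fold, in most pairs. Nr2f2, the venous fate factor, had -0.27 (SE 0.16, limma adjusted p = 0.18). Of the angiopoietin and junction partners 1 of 11 was called higher, again beside 6.86% of all probes. This was Angptl4, which was named after its value was seen, with a log2 difference of 1.06 (SE 0.35, limma adjusted p = 0.0303). Mural cells, the pericytes and smooth muscle around vessels, had 2 of 10 markers called lower, beside 6.97% of all probes. These were Des (-1.49) and Myh11 (-1.36), which muscle cells of the tongue and vessel wall also express. At the adjusted p alone 6 of the 10 mural markers were lower and 0 higher, beside 27.9% and 16.2% of all probes. Besides Des and Myh11 these were Abcc9 (-0.88), Notch3 (-0.80), Cspg4 (-0.56) and Higd1b (-0.46), each lower by less than 2-fold. Pdgfrb, Rgs5 and Acta2 had positive differences that did not pass.

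Among the ligands and receptors of leukocyte adhesion, 8 of 18 were called higher and 0 lower, against 6.86% and 6.97% of all probes. The median log2 difference was 0.81. The list holds genes of endothelium as well as of leukocytes, and Cd34, counted above among the further endothelial genes, is among the 8. Itgb2, the beta-2 chain of the ICAM-1 receptors, rose by 2.62 (SE 0.47, limma adjusted p = 0.00139) and was higher in 11 of 11 pairs. Itgal, its alpha-L partner, cleared background on 1 normal and 8 OSCC arrays, so that its fitted rise of 2.38 (SE 0.50, limma adjusted p = 0.00325) is taken largely from background readings. Itga4, the alpha chain of the VCAM-1 receptor, cleared background on 0 normal and 9 OSCC arrays and was at least 1.28-fold higher (limma adjusted p = 0.000395). Glycam1 and Itgad had log2 differences of 0.04 and 0.14 and did not pass. With scan day as a term 0 genes of this or any other list were called.

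Among the cytokines and NF-kB genes that act on adhesion genes, 6 of 17 were called higher and 0 lower. These stand beside 6.86% and 6.97% of all probes, and the median log2 difference of the list was 0.88. Il1b, an interleukin-1 made mainly by myeloid cells, rose by 4.17 (SE 0.73, limma adjusted p = 0.00131). Il1a, the form also held by epithelial cells, rose by 3.07 (SE 0.59, limma adjusted p = 0.00204). Tnf, the cytokine best known for inducing adhesion genes, rose by 2.11 (SE 0.52, limma adjusted p = 0.0082) and cleared background on 3 normal and 9 OSCC arrays. Ltb, lymphotoxin beta, rose by 1.54 (SE 0.36, limma adjusted p = 0.00556). At the adjusted p alone 10 of the 17 were higher, beside 16.2% of all probes. Among them were the NF-kB subunit genes Nfkb1 (0.75, limma adjusted p = 0.00506) and Nfkb2 (0.88, limma adjusted p = 0.00213). Rela, the p65 subunit of NF-kB, had 0.05, and Lta, lymphotoxin alpha, had 0.20, and neither passed. Without animals 21, 22 and 24 the list held 10 called higher and 1 lower. Calls over all probes rose in that subset too, so these counts are a description and support nothing.

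**Figure D4:**
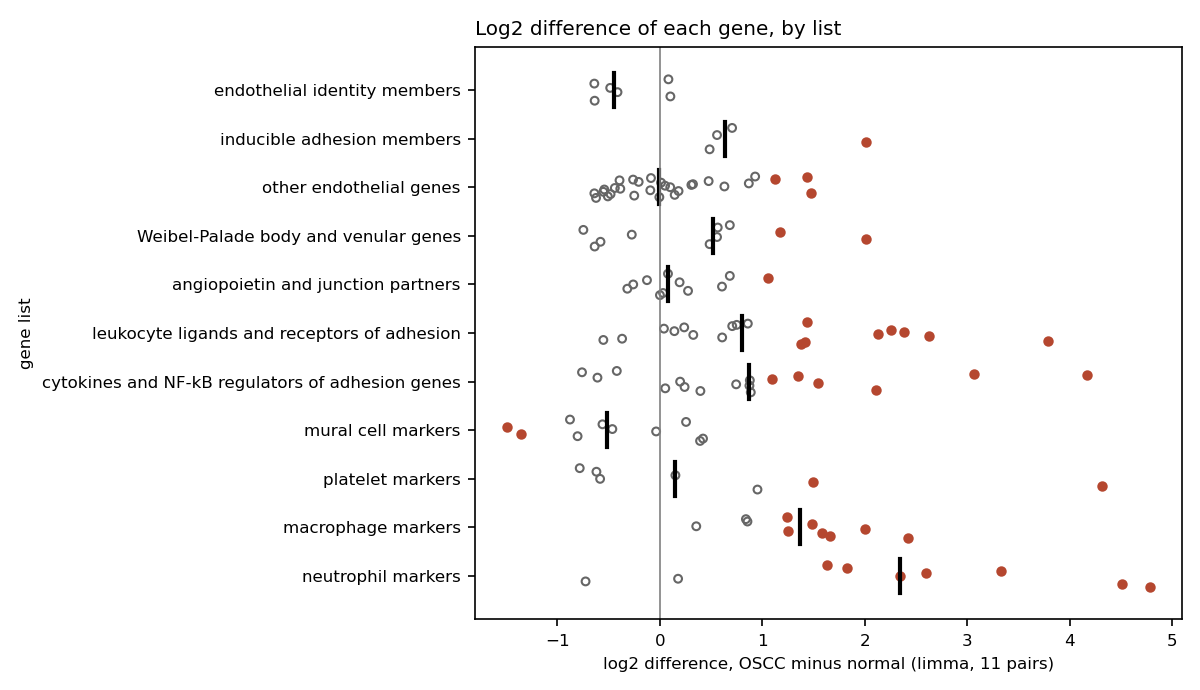
Log2 difference (OSCC minus normal, limma, 11 pairs) of each gene on the array, by list, with filled points for genes called at an adjusted p below 0.05 and 2-fold and a line at the median. The identity genes lie between -0.64 and 0.10, and the leukocyte and cytokine lists reach well to the right of 0.

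Platelets were checked because they carry P-selectin and von Willebrand factor. Of 7 platelet markers on the array, 2 were called higher, Pf4 with a log2 difference of 1.49 and Ppbp with 4.31, the latter read mostly against background in normal tissue, where it cleared background on 1 array, and on 7 in OSCC. Of the subunits of the platelet von Willebrand factor receptor, Gp1ba and Gp9 were well above background on 0 arrays of either tissue. Gp1bb was well above background on all 22 and was lower in OSCC in 10 of 11 pairs, by less than 2-fold (log2 difference -0.62, SE 0.22, limma adjusted p = 0.0395). The mean log2 level of the platelet list ran from -4.01 through -3.78 to -3.07 in normal tissue and from -4.02 through -2.63 to -2.24 in OSCC. Macrophage markers were called higher for 7 of 10 genes, with mean levels from -1.20 to 0.10 in normal tissue and from -0.44 to 1.64 in OSCC. Neutrophil markers were called higher for 7 of 9, with mean levels from -4.36 to -3.07 and from -3.75 to 0.01, and Ngp stayed at background on every array. Pan-leukocyte markers were called higher for 4 of 9, T cell markers for 6 of 9, and B and plasma cell markers for 3 of 5. Of the remaining lists, 7 of 9 fibroblast markers and 1 of 6 lymphatic endothelial markers were higher, 8 of 12 skeletal muscle markers were lower and 1 higher, and squamous epithelial markers had 1 of 8 in each direction. All these counts of calls stand beside 6.86% of all probes called higher and 6.97% called lower. The endothelial label itself was met by Pecam1, Cdh5, Vwf, Tie1 and Cldn5, each well above background on all 22 arrays.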

How the data were processed

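Paired OSCC and adjacent phenotypically normal tongue tissue from 11 rats was measured on 22 one-color Agilent arrays. The authors used Agilent Feature Extraction 9.5.3.1, and the deposited scanner files hold linear intensity values, which the software had corrected by subtracting a fitted spatial background surface, with no scaling between arrays. The authors also deposited a linear ratio of each signal to its array's 75th percentile, with a lowest value of 0.01, and this was used as an alternative. Here control spots and 9196 spots flagged as outliers (0.975%) were left out, spots of the same probe were averaged on the log2 scale, and the 75th percentile was subtracted. Precision is limited by how many arrays there are and, for dim probes, by signal over background.

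OSCC was compared with normal tissue by limma 3.58.1 (R 4.3.3) in a model of animal plus tissue, over 30367 probes of which 68 lacked a value on at least 1 array. Pairs come from tissue of 1 animal, and the correlation of the deviations of its pieces from the tissue means had a median of -0.02 (-0.21 to 0.24). Where no array of a tissue read a probe well above background, the other tissue's mean was set against the lowest signal of probes well above background on those arrays, which gives a lower limit of the fold. Simulated data gave each probe its residual SD from these arrays, the same in both tissues. They returned 80 of 100 probes changed by 1.5 log2 units and 99 of 100 changed by 3, with 4 false calls among 30299 probes. The wider spread of OSCC arrays (median SD ratio 1.64 over all probes) was not simulated. Permutation tests used Python 3.11.15.

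The members and gene lists were chosen with earlier results of these data known. The text names all members, from 4 pathway lists up to 4 called genes with the largest change and the 2 uncalled genes with the smallest, and the 4 genes whose changes correlate best with Cdh5 and with Sele. A gene that this rule names is not reported here. Cd63, Ece1, Tspan7, Nfkb1, Nfkb2, marker genes named for other cells, and the rule for separate ranges (a gap over 0.3 of the range with at least 3 pairs on each side), were chosen after the values were seen. Positions of probes are those of rn4 as the array annotation gives them. Alternatives were other scalings, normexp background correction with an offset of 50, the methods' paired t-test, scan day as a term, slide as a random block, a filter on dim probes, other probes, and subsets of pairs.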

Additional observations from a re-analysis of the deposited data

How the results depend on the processing

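The count of all probes called, 4201, was 1701 with normexp background correction, 6924 without animals 21, 22 and 24, and 3 with scan day as a term, and leaving out 1 pair at a time gave 3649 to 4799. Without the replicate block it was 4227. Identity genes called stayed at 0 under every alternative run. Adhesion genes called were 0 with scan day as a term and 3 without animals 21, 22 and 24 (Selp, Icam1 and Sele), and 1 whichever single pair was left out. Without the replicate block the adjusted p of Icam1 was 0.0469 in place of 0.0775, and no other member moved across 0.05. Of the 24 adhesion minus identity differences, 13 passed in all pairs, 24 without animals 21, 22 and 24, 2 in pairs scanned on different days, 0 with the dim Selp probe and 5 with the Vwf probe at background, and 7 to 20 when 1 pair was left out. Animals 21, 22 and 24 are the 3 with the smallest excess of adhesion over identity genes, so leaving them out raises this count by construction.

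Signs turned for Cdh5 with quantile normalization (-0.016), array median scaling (-0.12), scan day as a term (-0.64), without animals 21, 22 and 24 (-0.21) and without 1 pair (a range of -0.072 to 0.21, below 0 without animal 22 at -0.025 or 24), for Tie1 with array median scaling (-0.10) and scan day as a term (-0.20), and for Selp with its dim probe (-0.27). Differences that turned were Sele minus Cdh5 (-0.016) and Sele minus Tie1 (-0.10) with normexp, and Selp minus Cdh5 (-0.35) and Selp minus Tie1 (-0.37) with the dim Selp probe. With normexp Pecam1, Vwf and Cldn5 had adjusted p of 0.102, 0.136 and 0.0692. The cause was not tested. Slide and tissue cannot be told apart, since no slide held both, and scan day differed with tissue in 9 pairs. With scan day as a term the tissue difference therefore rests on the other pairs alone, those of animals 4 and 9. In the same-day pairs of animals 4 and 9 the mean log2 changes were 2.79 for Selp, 1.86 for Sele, 1.17 for Icam1, 0.66 for Vcam1 and -0.63 for Cdh5.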
